A study of Homo sapiens with 9 samples.

Results

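Cholesterol is built from squalene by a chain of enzymes of the endoplasmic reticulum, and 9 genes of that chain were followed here in cells whose fatty acid synthase was inhibited: SQLE, LSS, CYP51A1, TM7SF2, NSDHL, HSD17B7, EBP, SC5D and DHCR7. The genes were listed by name and measured with every probe set annotated to 1 of them alone. That gave 19 probe sets of 54675 on the array, for 8 of the 9 genes, all above the filter on low values. The probe sets of CYP51A1 are annotated to 2 genes, so that enzyme has no value of its own below.

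The cells were PANC-1, an established human line from an adenocarcinoma of the pancreas. A day after seeding, the medium was changed to one holding 1% charcoal-filtered serum, in which the cells stayed for 72 hours with DMSO alone, with 0.1 µM TVB-3166 or with 1.0 µM TVB-3166, an inhibitor of fatty acid synthase. All 3 groups thus share the low, charcoal-filtered serum, and each has 3 Affymetrix HG-U133 Plus 2.0 arrays. Doses here follow the titles of the arrays, with which some other labels conflict, as described below. Nothing says that the 3 replicates of a group are separate cultures, so p-values measure the spread between these arrays, which may be technical.

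Squalene epoxidase puts oxygen onto squalene and lanosterol synthase closes the rings, which gives the first sterol. The later enzymes strip methyl groups from lanosterol, move and remove double bonds, and end at cholesterol. In most mammalian cells genes of this pathway are transcribed under SREBP factors, which leave the endoplasmic reticulum when its membrane is short of sterol and which act with the CCAAT-binding factor NF-Y and with Sp1.

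Of the 8 measured genes, 7 rose at both doses: SQLE, LSS, NSDHL, HSD17B7, EBP, SC5D and DHCR7. Against DMSO they stood 1.82-fold to 2.52-fold higher at 0.1 µM and 1.52-fold to 1.98-fold higher at 1.0 µM, on the scale of signal + 16. TM7SF2, a sterol reductase, was the exception, at 1.26-fold of DMSO at the lower dose and 0.798-fold at the higher dose, and neither difference passed the test. Each of the 8 genes had a lower mean at 1.0 µM than at 0.1 µM, but only for TM7SF2 did that difference pass. In RNA pooled from a culture, a change in the share of cells that hold a transcript and a change in its amount per cell cannot be told apart.

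Levels below are the authors' signals, on a linear scale, of the brightest probe set of each gene, in the order of replicates 1, 2 and 3. A log2 change is a difference of mean log2(signal + 16) ± limma standard error with 3 arrays per group, and the call was made where its adjusted p was under 0.05. Changes at the 2 doses share the DMSO arrays. Signals of different probe sets are not comparable with each other.

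**Figure D1:**
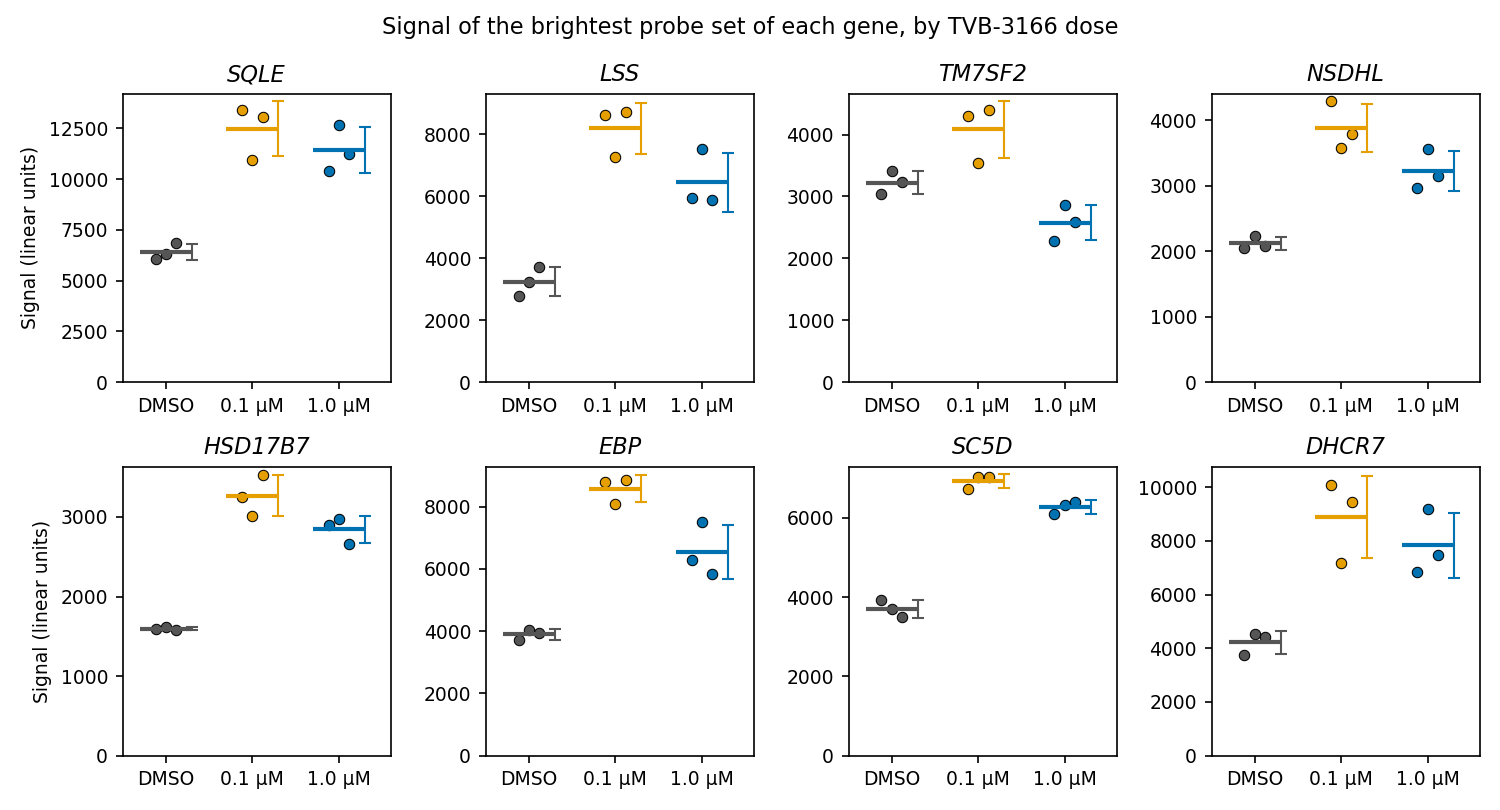
Signal of the brightest probe set (linear units, y axis from 0) of the 8 measured genes in DMSO, 0.1 µM and 1.0 µM TVB-3166. Points are the 3 arrays of a group, horizontal lines are means and the bars beside them are ± 1 SD. In 7 panels all treated arrays lie above the DMSO arrays, while for TM7SF2 the 1.0 µM arrays (2288 to 2855) lie below them (3038 to 3408).

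SQLE (Entrez gene 6713) encodes squalene epoxidase, a rate-limiting oxygenase of the pathway. Its signals were 6049.8, 6337 and 6851 in DMSO, 13427.5, 10937 and 13078.5 at 0.1 µM, and 10395, 12675 and 11238.5 at 1.0 µM. Both treated groups lay wholly above DMSO and overlapped each other. SQLE rose by 0.95 ± 0.12 at 0.1 µM (adjusted p = 0.000232) and by 0.83 ± 0.12 at 1.0 µM (adjusted p = 0.000291).

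LSS (Entrez gene 4047) encodes lanosterol synthase, which cyclises the epoxide. Its arrays read 2782, 3243 and 3716 in DMSO, 8609.8, 7251 and 8709 at 0.1 µM, and 5930, 7531 and 5871 at 1.0 µM. Here too the treated groups were apart from DMSO and overlapped each other, through 1.0 µM replicate 2. On the brightest probe sets LSS had the largest change of the measured members at both doses. It was 1.34 ± 0.13 at 0.1 µM (adjusted p = 5.87e-05) and 0.99 ± 0.13 at 1.0 µM (adjusted p = 0.000238). That rank depended on the probe set used. When each gene was averaged over all its probe sets, DHCR7 led LSS, with 1.29 against 1.17 at 0.1 µM. At 1.0 µM DHCR7 then stood at 1.06, SQLE at 0.96 and LSS at 0.90. Only 0.781% of the tested genes had a higher log2 change than LSS at 0.1 µM, and 2.87% at 1.0 µM.

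TM7SF2 (Entrez gene 7108) encodes a sterol reductase that acts after the first demethylation of lanosterol, an activity that the lamin B receptor LBR also has. Its signals were 3038, 3408 and 3232 in DMSO, 4301, 3548 and 4403 at 0.1 µM, and 2288, 2855 and 2594 at 1.0 µM. The 3 groups did not overlap, in the order 0.1 µM, DMSO, 1.0 µM from high to low. Neighbours in that order did not pass the test: the change was 0.33 ± 0.11 at 0.1 µM (adjusted p = 0.0779) and −0.33 ± 0.11 at 1.0 µM (adjusted p = 0.055). The ends of the order did, with 1.0 µM below 0.1 µM by −0.66 ± 0.11 (adjusted p = 0.0225).

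NSDHL (Entrez gene 50814) and HSD17B7 (Entrez gene 51478) encode the dehydrogenase and the ketoreductase of the complex that removes methyl groups from the sterol ring. NSDHL read 2045, 2225 and 2081 in DMSO, 4292, 3579 and 3782.5 at 0.1 µM, and 2965, 3557.5 and 3149 at 1.0 µM. Its 3 groups did not overlap. On the brightest probe sets NSDHL had the smallest rises of the 7 genes. They were 0.87 ± 0.10 at 0.1 µM (adjusted p = 0.00016) and 0.60 ± 0.10 at 1.0 µM (adjusted p = 0.00109). When each gene was averaged over all its probe sets, SC5D rose least instead. It then stood at 0.77 at 0.1 µM (NSDHL 0.88) and at 0.56 at 1.0 µM (NSDHL 0.63). HSD17B7 read 1590.4, 1613 and 1576 in DMSO, 3255, 3014 and 3530.1 at 0.1 µM, and 2899, 2972 and 2657.5 at 1.0 µM. The DMSO arrays of HSD17B7 had an SD of 0.02 on the log2 scale, the smallest of the members, and its 3 groups did not overlap. HSD17B7 rose by 1.03 ± 0.09 at 0.1 µM (adjusted p = 1.93e-05) and by 0.83 ± 0.09 at 1.0 µM (adjusted p = 3.87e-05). It is measured by 1 probe set of the _x_at type, which can also bind related transcripts.

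EBP (Entrez gene 10682) encodes the isomerase that shifts a double bond within the ring system. Its signals were 3710.3, 4026.5 and 3942.5 in DMSO, 8797.5, 8083.5 and 8854 at 0.1 µM, and 6294, 7495.5 and 5824 at 1.0 µM. None of the 3 groups overlapped. EBP rose by 1.14 ± 0.11 at 0.1 µM (adjusted p = 3.3e-05) and by 0.74 ± 0.11 at 1.0 µM (adjusted p = 0.000351).

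SC5D (Entrez gene 6309), the desaturase of the next step, read 3938, 3698 and 3489 in DMSO, 6719.6, 7030.5 and 7018 at 0.1 µM, and 6085, 6324 and 6402 at 1.0 µM. Its treated arrays were the tightest of the members, with an SD of 0.04 on the log2 scale at either dose. SC5D rose by 0.90 ± 0.09 at 0.1 µM (adjusted p = 3.88e-05) and by 0.76 ± 0.09 at 1.0 µM (adjusted p = 5.93e-05).

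DHCR7 (Entrez gene 1717), the reductase that makes cholesterol from its dehydro precursor, read 3739.6, 4517 and 4421 in DMSO. It read 10064.5, 7169.9 and 9439 at 0.1 µM and 6856, 9190.1 and 7461 at 1.0 µM. These treated arrays were the most scattered of the members, with SDs of 0.26 and 0.22 on the log2 scale, and they overlapped between the doses. DHCR7 rose by 1.06 ± 0.15 at 0.1 µM (adjusted p = 0.00057) and by 0.88 ± 0.15 at 1.0 µM (adjusted p = 0.00108).

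**Figure D2:**
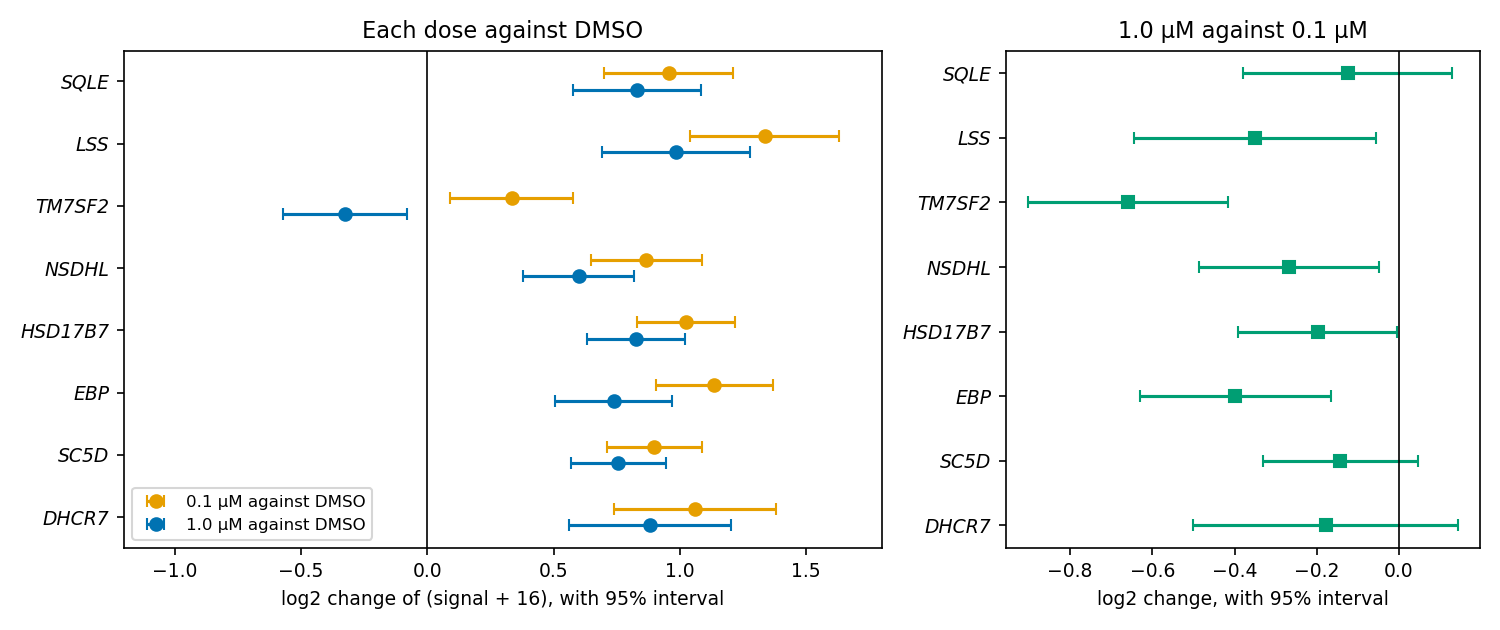
Log2 changes of (signal + 16) for the 8 measured genes, with 95% intervals from limma: each dose against DMSO on the left (orange circles 0.1 µM, blue circles 1.0 µM) and 1.0 µM against 0.1 µM on the right. The 7 rising genes lie between 0.60 and 1.34 on the left, and on the right TM7SF2 lies at −0.66 and the other 7 between −0.40 and −0.12.

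Across the table of 13948 genes, 6.89% were called higher and 5.11% lower at 0.1 µM against DMSO, beside 7 of 8 members higher and 0 lower. The median change of the 8 members was 0.99, against −0.01 over all tested genes. At 1.0 µM 12.3% of genes were called higher and 11.0% lower, and again 7 of 8 members were higher and 0 lower by limma. The 1 gene not called at either dose, TM7SF2, had an unadjusted p of 0.0115 at 0.1 µM and 0.0133 at 1.0 µM. The members' median change at 1.0 µM was 0.79, against 0.01 over all genes. All 3 treated arrays lay above all 3 DMSO arrays for 8 of 8 members at 0.1 µM (15.5% of all genes) and for 7 of 8 at 1.0 µM (19.2% of all genes).

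On the brightest probe sets the 7 rises ran from 0.87 to 1.34 at 0.1 µM and from 0.60 to 0.99 at 1.0 µM. Over all probe sets of these genes the range was wider, from 0.63 to 1.52 and from 0.35 to 1.28. The shares that follow are for the brightest probe sets. At 0.1 µM between 0.781% and 2.49% of the tested genes had a higher log2 change than these members, and at 1.0 µM between 2.87% and 8.40%. Centred on its DMSO mean, TM7SF2 lay below the lowest of the other 7 genes on each of the 6 treated arrays. On 1.0 µM replicate 1, for instance, it stood at −0.49 on the log2 scale where the other 7 ran from 0.48 to 0.88, and on 0.1 µM replicate 3 at 0.45 where they ran from 0.83 to 1.43.

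The direct comparison of the doses asks whether a 10-fold higher dose gave more. It takes the doses from the titles, whereas the treatment field of the arrays titled 1.0 µM gives 0.1 µM. No measured member had a higher mean at the higher dose: the 8 changes from 0.1 to 1.0 µM ran from −0.66 in TM7SF2 to −0.12 in SQLE, with a median of −0.23, against 0.01 over all genes. Of all tested genes 49.1% had a lower mean at 1.0 µM than at 0.1 µM. The 8 members were read on the same arrays, so their common sign is not 8 separate observations. The doses also differed in the hybridisation spikes described below. Replicates 1 and 3 at 0.1 µM were in the set of higher spike signal, but at 1.0 µM only replicate 2. Changes within each set are given there for SQLE, DHCR7 and TM7SF2. Limma called 1 of 8 members lower and 0 higher between the doses, beside 0.430% and 0.387% of all genes. At unadjusted p under 0.05 there were 5 of 8 members, against 12.4% of all genes. In 5 members, TM7SF2, NSDHL, HSD17B7, EBP and SC5D, all 1.0 µM arrays lay below all 0.1 µM arrays, as in 8.73% of all genes.

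EBP came nearest to the threshold after TM7SF2, at −0.40 ± 0.11 (adjusted p = 0.123). LSS stood at −0.35 ± 0.13 (adjusted p = 0.313), NSDHL at −0.27 ± 0.10 (adjusted p = 0.302) and HSD17B7 at −0.20 ± 0.09 (adjusted p = 0.394). The 95% intervals of SQLE (−0.38 to 0.13), SC5D (−0.33 to 0.04) and DHCR7 (−0.50 to 0.14) included 0. For these genes no change between the doses, or a fall or a rise within those limits, is not excluded.

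The call of TM7SF2 between the doses rested on few arrays. Without 0.1 µM replicate 1 it was at −0.62 (adjusted p = 0.13), without 0.1 µM replicate 3 at −0.60 (adjusted p = 0.0917), without 1.0 µM replicate 1 at −0.58 (adjusted p = 0.111) and without 1.0 µM replicate 3 at −0.67 (adjusted p = 0.122). In a fit of only the 6 arrays compared the adjusted p was 0.0552, and without the variance trend 0.0852. Its sign held in all 25 alternatives.

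Other probe sets of the same genes gave the same directions with other sizes. Of the 19 probe sets, 17 were called higher at 0.1 µM and 16 at 1.0 µM, where 4.59% and 8.94% of the 32768 probe sets above the filter were called higher. All 19 had a lower mean at 1.0 µM than at 0.1 µM, against 47.0% of all probe sets, and 1 was called lower between the doses (0.159% of all). These 19 share the same arrays and some share a gene, so their common sign is not 19 separate observations.

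SQLE had the widest range among its 4 probe sets, from 0.80 to 1.49 at 0.1 µM and from 0.54 to 1.28 at 1.0 µM, and its brightest probe set gave smaller changes than 2 of the dimmer ones. DHCR7 likewise stood at 1.06 on 1 probe set and 1.52 on the other at 0.1 µM, and at 0.88 and 1.24 at 1.0 µM. The 3 probe sets of LSS ran from 0.87 to 1.34 at 0.1 µM and from 0.82 to 0.99 at 1.0 µM, and the 2 of NSDHL from 0.87 to 0.89 and from 0.60 to 0.66.

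Among the 7 rising genes 3 probe sets missed a call at 1 dose, each the one of lowest signal for its gene. In DMSO the dimmest of the 4 EBP probe sets averaged 66.8 ± 22.0 (SD, n = 3) and that of SC5D 223 ± 29.4. At 1.0 µM that EBP probe set stood at 0.35 ± 0.25 (adjusted p over probe sets = 0.394), and that of SC5D at 0.37 ± 0.14 (adjusted p = 0.0949). At 0.1 µM both were called, at 0.91 ± 0.25 (adjusted p = 0.0439) and 0.63 ± 0.14 (adjusted p = 0.0153), while the dimmest LSS probe set was not (0.87 ± 0.25, adjusted p = 0.058). TM7SF2 has 1 probe set, so its pattern has no second measurement on the array.

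**Figure D3:**
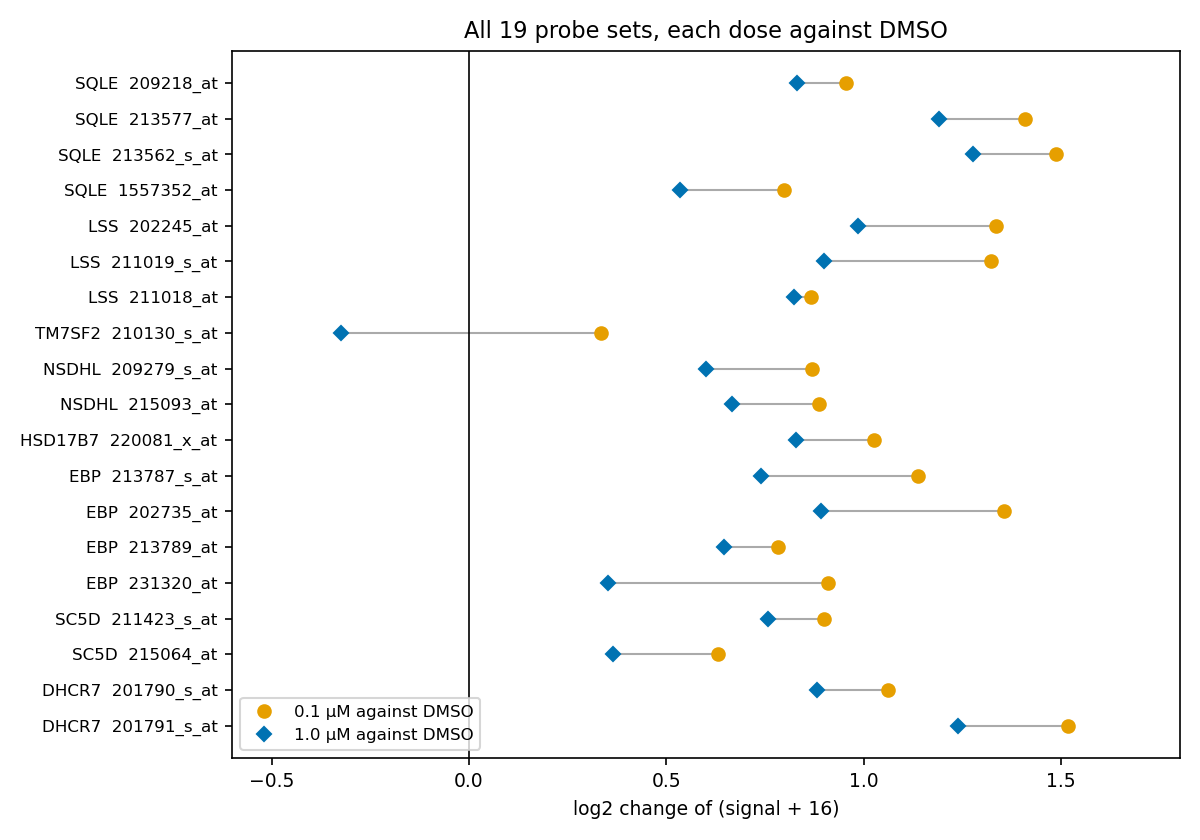
Log2 change of (signal + 16) against DMSO for each of the 19 probe sets, grouped by gene, brightest first within a gene. Orange circles are 0.1 µM and blue diamonds 1.0 µM, joined by a line. Every diamond lies to the left of its circle, and only TM7SF2 crosses 0.

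The RefSeq promoter windows on build GRCh38.p14, each from 250 bases before an annotated start to 50 after it, were searched for short motifs on both strands. The search covered 10 windows of 8 of the 9 enzymes, with 2 starts for SC5D and 2 for DHCR7. SQLE was not part of it. The CCAAT box, the letters CCAAT that NF-Y binds, was found for 7 of the 8 enzymes. By window it was in 8 of their 10, and in 34.6% of all 35116 windows of that length. The 2 windows of SC5D overlap, and the same CCAAT box is counted in both. The GC box GGGCGG, which Sp1 binds, was also found for 7 of 8 enzymes, in 8 of the 10 windows, and in 45.0% of all windows. The members' windows were 57.0% to 75.0% G and C, against a median of 58.7% over all windows.

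The 150 bases upstream of the start are shown for the 7 measured enzymes whose windows were searched. They let the place of the CCAAT box be compared between those that rose, other than SQLE, and TM7SF2. Each is written 5′ to 3′ on the strand of the gene, and capitals mark the CCAAT box or its reverse complement ATTGG. On GRCh38.p14 they lie at LSS chr21:46228775-46228924 (minus strand), TM7SF2 chr11:65111722-65111871 (plus strand), NSDHL chrX:152830913-152831062 (plus strand), HSD17B7 chr1:162790552-162790701 (plus strand), EBP chrX:48521658-48521807 (plus strand), SC5D chr11:121292621-121292770 (plus strand, first of 2 starts) and DHCR7 chr11:71448394-71448543 (minus strand, the lower in coordinate of 2 starts).
LSS: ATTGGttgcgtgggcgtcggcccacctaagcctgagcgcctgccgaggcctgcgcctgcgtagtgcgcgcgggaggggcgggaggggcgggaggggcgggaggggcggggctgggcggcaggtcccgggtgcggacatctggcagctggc
TM7SF2: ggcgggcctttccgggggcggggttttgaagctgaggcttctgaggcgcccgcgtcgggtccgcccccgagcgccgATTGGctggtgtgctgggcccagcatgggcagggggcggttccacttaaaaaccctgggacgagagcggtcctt
NSDHL: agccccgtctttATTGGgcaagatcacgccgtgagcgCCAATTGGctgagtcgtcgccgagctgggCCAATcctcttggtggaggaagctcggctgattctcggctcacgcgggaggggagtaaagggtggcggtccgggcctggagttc
HSD17B7: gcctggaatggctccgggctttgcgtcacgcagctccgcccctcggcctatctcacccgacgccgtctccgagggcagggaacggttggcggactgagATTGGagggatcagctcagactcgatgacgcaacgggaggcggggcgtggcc
EBP: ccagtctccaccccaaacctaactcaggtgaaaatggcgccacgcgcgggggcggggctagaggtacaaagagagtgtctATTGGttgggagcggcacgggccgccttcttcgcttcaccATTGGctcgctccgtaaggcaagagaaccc
SC5D: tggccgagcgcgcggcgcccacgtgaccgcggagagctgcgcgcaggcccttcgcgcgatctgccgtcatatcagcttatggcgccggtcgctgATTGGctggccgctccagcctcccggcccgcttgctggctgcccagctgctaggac
DHCR7: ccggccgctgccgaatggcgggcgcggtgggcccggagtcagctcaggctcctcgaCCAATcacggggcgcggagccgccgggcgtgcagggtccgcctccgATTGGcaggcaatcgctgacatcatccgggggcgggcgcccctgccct

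In TM7SF2 the only CCAAT box began 74 bases before the start. Boxes at a like distance began 70 bases before it in EBP, 52 in HSD17B7 and 84 in NSDHL. SC5D had a box 56 bases before its first start, and DHCR7 a box 94 bases before its start of lower coordinate. The window of the other DHCR7 start held none of the searched motifs. In LSS the box lay farther up, 150 bases before the start, with 5 GC boxes between 75 and 33 bases before it. NSDHL held 5 matches in its whole window, among them a pair that overlaps by 2 bases, and EBP held 3. The window of TM7SF2 also held 4 GC boxes.

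The sterol regulatory element that SREBP factors bind was searched as TCACNCCAC, which was in none of the 10 windows and in 1.13% of all. Its shorter core CACNCCAC, which lies inside it, was in both windows of SC5D, which overlap, and in 5.87% of all windows. The E-box CACGTG, another SREBP site, was found for LSS and SC5D, in 3 of the 10 windows (the same site in both SC5D windows), and in 7.26% of all windows. TATAAA was in none of the members' windows and in 11.5% of all. A match is a match of letters only, and the lack of one says nothing beyond these letters and these windows.

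**Figure D4:**
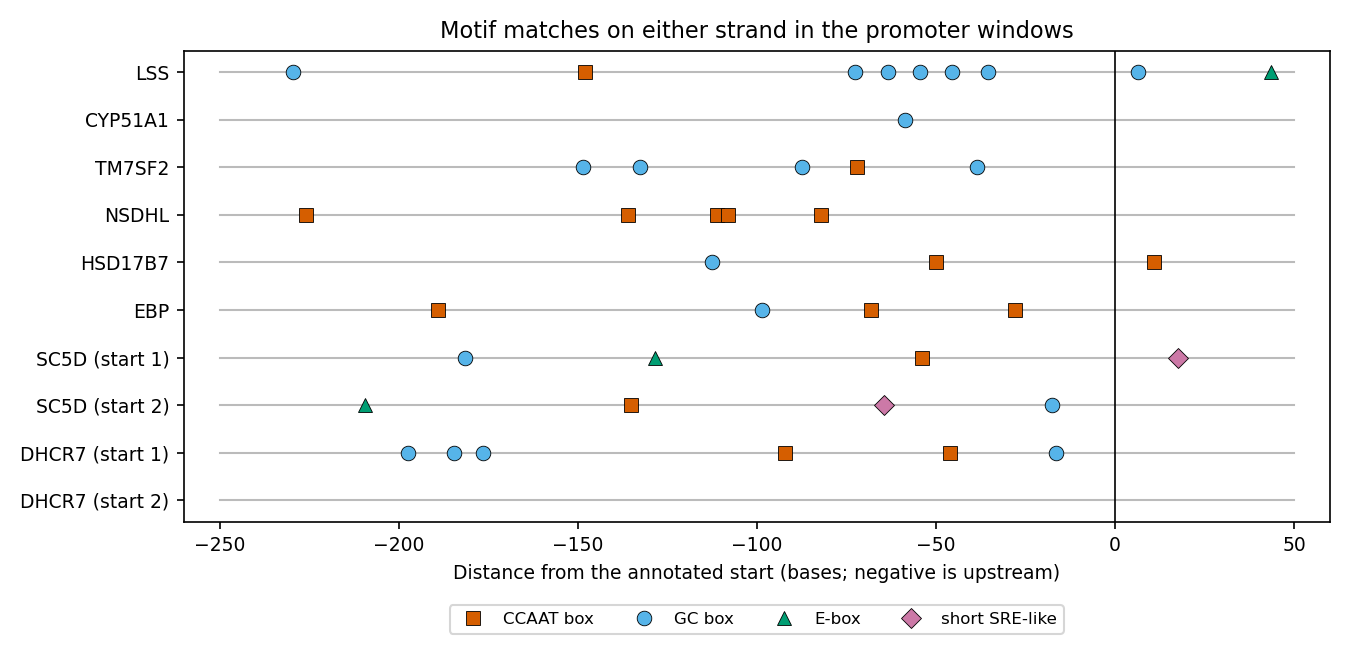
Motif matches on either strand in the 10 promoter windows, by distance from the annotated start in bases (negative is upstream). Orange squares are CCAAT boxes, blue circles GC boxes, green triangles E-boxes and the purple diamonds the short SRE-like core. A CCAAT box is drawn for 7 of the 8 enzymes, within 150 bases upstream of a start in each of the 7. Starts of the same gene are numbered by rising genome coordinate.

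The remaining enzymes of the late pathway split. MSMO1, the methyl sterol oxidase that acts before NSDHL, had signals of 5860.6 ± 23.9 (mean ± SD, n = 3 in each group) in DMSO, 12897 ± 1629 at the lower dose and 11839.9 ± 684 at the higher, and rose by 1.13 ± 0.11 and 1.01 ± 0.11. ERG28, a scaffold of the demethylating complex, rose by 0.78 ± 0.08 and 0.47 ± 0.08. LBR, which shares the reductase step with TM7SF2, rose at 0.1 µM (0.37 ± 0.10, adjusted p = 0.0259) and was at 0.24 ± 0.10 at 1.0 µM (adjusted p = 0.0957); it is named after its values were seen. EBPL, a relative of EBP, stood at −0.21 ± 0.08 and −0.22 ± 0.08, with no call at either dose (adjusted p = 0.129 and 0.0692). Of 5 tested genes in this list, 3 rose at 0.1 µM and 2 at 1.0 µM, where 6.89% and 12.3% of all genes were called higher.

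Upstream of squalene the mevalonate pathway had 6 of 7 tested genes higher at each dose (6.89% of all genes at 0.1 µM and 12.3% at 1.0 µM), with median changes of 1.23 at 0.1 µM and 0.97 at 1.0 µM. HMGCS1, the HMG-CoA synthase, was at 1.82 ± 0.11 and 1.63 ± 0.11, MVD, the mevalonate decarboxylase, at 2.16 ± 0.17 and 1.68 ± 0.17, and FDPS, which makes farnesyl pyrophosphate, at 1.84 ± 0.18 and 1.47 ± 0.18. Each of these 3 changes was larger than that of any measured enzyme after squalene, although whether those stretches of the pathway differ was not tested. PMVK, the phosphomevalonate kinase, was the 1 not called (−0.03 and −0.23, adjusted p = 0.918 and 0.178), and is named after its values were seen. None of the 7 was called between the doses.

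The oxygenase and desaturase steps draw electrons from partner proteins, and those were mixed. POR, the cytochrome P450 reductase that also serves squalene epoxidase, rose by 0.54 ± 0.16 at 0.1 µM (adjusted p = 0.0414) and by 0.87 ± 0.16 at 1.0 µM (adjusted p = 0.00159). At 1.0 µM CYB5R1 rose by 0.30 ± 0.09 (adjusted p = 0.0349) and CYB5R3, the cytochrome b5 reductase, fell by 0.45 on the log2 scale (SE 0.11, adjusted p = 0.00946). Of 5 tested partners 1 rose at 0.1 µM (6.89% of all genes), and 2 rose and 1 fell at 1.0 µM (12.3% and 11.0% of all genes).

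Among regulators of SREBP 2 of 13 tested genes rose at 0.1 µM and 3 at 1.0 µM, where 6.89% and 12.3% of all genes were called higher, so these counts are no result about the list. INSIG1, which holds SREBP back in the endoplasmic reticulum and is itself an SREBP target, rose by 1.20 ± 0.10 and 0.96 ± 0.10. SREBF1 rose by 1.29 ± 0.20 and 0.73 ± 0.20. SREBF2, the factor best known for sterol genes, was at 0.48 ± 0.18 at 0.1 µM (adjusted p = 0.107) and rose by 0.60 ± 0.18 at 1.0 µM (adjusted p = 0.027). In the list of sterol uptake and transport 5 of 10 tested genes rose and 1 fell at each dose (of all genes 6.89% rose and 5.11% fell at 0.1 µM, and 12.3% and 11.0% at 1.0 µM), with ABCA1, the sterol exporter, at 1.65 ± 0.15 and 1.76 ± 0.15, NPC1 at 1.08 ± 0.13 and 1.14 ± 0.13, and the ubiquitin ligase gene MYLIP at 0.98 ± 0.12 and 1.14 ± 0.12. The gene that fell, named after its values were seen, was SCARB1, the scavenger receptor for high-density lipoprotein, at −0.51 ± 0.14 (adjusted p = 0.0292) and −1.04 ± 0.14 (adjusted p = 0.00016).

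The 10 non-member genes whose profile over the 9 arrays was most like the members' median profile were found by the root mean square difference of log2 values, each gene centred on its DMSO mean. They were ATF4 (0.09), MMAB (0.10), TMEM97 (0.11), IDI1 (0.11), CCNB1IP1 (0.11), SARS1 (0.11), PSAT1 (0.12), HSD17B12 (0.12), CAVIN3 (0.12) and CBS (0.12). ATF4, a stress transcription factor, stood at a log2 change of 0.95 ± 0.14 at 0.1 µM and 0.83 ± 0.14 at 1.0 µM, and IDI1, the isopentenyl diphosphate isomerase, at 1.13 ± 0.12 and 0.74 ± 0.12. The median profile is built from the members, so their own distances to it are partly fixed by that choice: SQLE was at 0.05 and HSD17B7 at 0.07. By the same measure 161 non-members were nearer than LSS, and 6293 were nearer than TM7SF2 (0.75).

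On the arrays as a whole, the 9 probe sets of the hybridisation spikes had a mean log2 signal that ran from 11.2 to 12.1 and parted the arrays into 5 lower and 4 higher (DMSO replicate 2, 0.1 µM replicates 1 and 3, 1.0 µM replicate 2). The log2 ratio of 3′ to 5′ probe sets ran from −0.22 to −0.10 for GAPDH and from 0.10 to 0.24 for ACTB. All 10 ductal and carcinoma markers were above the filter, with a summed signal of 108931 to 151763 in DMSO, 97193 to 150324 at 0.1 µM and 91027 to 139457 at 1.0 µM. Of the 10, KRT7 was called higher at 0.1 µM (1.11 ± 0.12, adjusted p = 7.52e-05) and at 1.0 µM (1.06 ± 0.12, adjusted p = 4.29e-05), and at 1.0 µM KRT8 (−0.86 ± 0.15, adjusted p = 0.00165) and KRT19 (−0.90 ± 0.17, adjusted p = 0.00258) were called lower. Of 6 acinar and endocrine markers with a probe set 1 was above the filter, CELA3A, at 25.7 to 102 over the arrays. INS stood at 14.4 or less and CPA1 at 11.6 or less on every array (both untested, and named after their values were seen). The summed signal of the 6 markers was 97.3 to 193, 106 to 132 and 128 to 197 in the same order of groups. Above the filter were 3 of 6 blood markers with a probe set (HBB, CD3E and MS4A1). So were 3 of 9 fibroblast, endothelial and liver markers (PECAM1, DCN and APOA1). The sums of the 6 blood markers were 264 to 428, 287 to 328 and 287 to 360. Those of the 9 fibroblast, endothelial and liver markers were 342 to 572, 402 to 541 and 417 to 531. In both lists the ranges overlapped between the groups.

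By spike level, the 1.0 µM array of the higher set was the highest of its group in 7 of 8 members (39.7% of all genes), the DMSO array of the higher set in 5 of 8 (37.4%) and 0.1 µM replicate 1, also of that set, in 3 of 8 (33.7%), and the 0.1 µM array of the lower set was the lowest of its group in 7 of 8 (35.1% of all genes). The lower set holds 1 array at 0.1 µM, and the higher set 1 in DMSO and 1 at 1.0 µM, so in fits within a set the spread comes from the other groups and a lone array is assumed to vary like them. Within the lower set alone the 7 genes stood at 0.56 to 0.87 at 1.0 µM and at 0.76 to 1.17 at 0.1 µM, and within the higher set at 0.67 to 1.21 and at 0.85 to 1.41, all above 0. Between the doses SQLE stood at −0.02 in the lower set and −0.06 in the higher, DHCR7 at −0.00362 and −0.08, and TM7SF2 at −0.54 (adjusted p = 0.318) and −0.61 (adjusted p = 0.0106). With the split as a block, EBP was called lower at 1.0 µM than at 0.1 µM as well (−0.34, adjusted p = 0.0432), as it was without 1.0 µM replicate 2 (−0.50, adjusted p = 0.0339). The same block also called TM7SF2 against DMSO, higher at 0.1 µM (0.26, adjusted p = 0.0395) and lower at 1.0 µM (−0.33, adjusted p = 0.00636).

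Some labels conflict. The description of 0.1 µM replicate 1 names DMSO alone, while its title gives 0.1 µM. In 7 of 7 rising genes this array lay with the other 0.1 µM arrays, above every DMSO array. Those genes were called with it counted at 0.1 µM, so its place in them cannot tell which label is right. Without 0.1 µM replicate 1 the members called against DMSO were still 7 higher at each dose. Between the doses 0 members and 0 probe sets were then called by limma, against 1 of each with it. The treatment field of all 3 arrays titled 1.0 µM gives 0.1 µM, and the DMSO content is given as 0.05% in the source names of the DMSO arrays and 0.5% in descriptions. Groups follow the titles.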

How the data were processed

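Intensity per probe set was taken as the authors deposited it: linear MAS5 signals, per the submitters' processing notes, scaled so that the 2% trimmed mean of each array is the same. The scanner files were not used here. Probe sets were named through GEO's platform annotation, and of 41091 with 1 symbol 41037 were matched by Entrez identifier to RefSeq GRCh38.p14, while 1801 had several symbols and 11721 none listed. The 62 array controls were left out.

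Signals were tested as log2(signal + 16) with limma 3.58.1 in R 4.3.3 (lmFit, eBayes with trend, 2-sided) over all 9 arrays, with 3 groups, no covariates and 6 residual degrees of freedom. Probe sets with a mean level above the 40th percentile (signal 39.0) were kept, 32768 in all. Each gene was represented by its probe set of highest mean, and p-values were adjusted by Benjamini-Hochberg over all genes or probe sets of a comparison. The code was tested on simulated data. The number of arrays limits the precision.

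The members and lists were chosen with earlier results of these data known. All members are named. In the other lists the named genes are among the 3 with the smallest p at 1.0 µM, and others are marked where they stand. In the likeness search the 10 nearest genes are named. Replicate numbers did not pair the arrays: correlations of deviations between same-numbered arrays ran from −0.338 to 0.217. Genes of the other lists without a tested value are not reported here. Other cell lines and times in the series' design text were not analysed here. Promoter windows were searched with Python 3.11.15. The planned comparison of protein sequences was not run.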

Additional observations from a re-analysis of the deposited data

Results flagged for a closer look

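CYP51A1, which removes a methyl group from lanosterol, has 2 probe sets on the array, and both are annotated also to LRRD1, so they entered no count of the enzymes. They are given here as a signal outside the main measurement. The brighter of the pair read 5537, 6097 and 6039.5 in DMSO, 12612, 10129.6 and 12622 at 0.1 µM, and 9707, 12093 and 10392 at 1.0 µM. All 6 treated arrays lay above all 3 DMSO arrays. By limma the log2 change was 0.99 ± 0.12 at 0.1 µM (adjusted p over probe sets = 0.000369) and 0.86 ± 0.12 at 1.0 µM (adjusted p = 0.000478).

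The dimmer of the pair read 3128, 2848 and 1986 in DMSO, 5013, 5676 and 6137 at 0.1 µM, and 6096, 3704 and 6194 at 1.0 µM. The treated arrays were again above DMSO, with 1.0 µM replicate 2 well below the other 2 of its group, whereas on the brighter one it was the highest. The log2 change was 1.10 ± 0.20 at 0.1 µM (adjusted p = 0.00558) and 0.99 ± 0.20 at 1.0 µM (adjusted p = 0.00531). Between the doses the changes were −0.13 and −0.11 (adjusted p = 0.763 and 0.904). Which of the 2 annotated genes gave the signal was not tested.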

How the results depend on the processing

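SQLE, LSS, NSDHL, HSD17B7, EBP, SC5D and DHCR7 kept their direction and their call against DMSO in 161 of 161 gene and alternative pairs at each dose, over the 23 alternatives other than the fits within 1 spike set, whose arms of 1 array say little about stability. Their log2 changes ran from 0.77 to 1.44 at 0.1 µM and from 0.53 to 1.09 at 1.0 µM, and the highest adjusted p were 0.00549 and 0.0066, both for DHCR7. Leaving out 1 array gave 7 to 8 members and 14 to 17 probe sets called at 0.1 µM, and 7 to 8 members and 14 to 16 probe sets at 1.0 µM. The members' medians then ran from 0.94 to 1.06, from 0.75 to 0.83 and, between the doses, from −0.32 to −0.20.

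The count of members called between the doses, 1 in the reported analysis, did depend on the setting. It was 2 with quantile normalization or with the spike split as a block and 5 with array weights. It was 0 by limma with eBayes without trend, with the replicate block, in the lower spike set or with only the 6 arrays compared, and 0 to 2 with 1 array left out. The probe sets called there, also 1, were 0 with no filter, with arrays centred on the median, with eBayes without trend, with the replicate block, in the lower spike set or with only the 6 arrays compared, 8 with array weights, and 0 to 2 with 1 array left out. Where limma called 0, an unadjusted p under 0.05 was found for 2 to 4 members (8 settings) and 3 to 9 probe sets (14 settings). The smaller spike sets, the fits without 1 array and the fit of only the 6 arrays compared hold fewer samples, and for the other settings the cause was not tested.

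TM7SF2 lost its call between the doses in 8 of 25 alternatives, the replicate block among them (adjusted p = 0.0776). Against DMSO it gained a call in 6 at 1.0 µM and in 5 at 0.1 µM, among them array weights (adjusted p = 0.0151 and 0.0178). EBP gained one between the doses in 4, and LSS, NSDHL and HSD17B7 with array weights. No sign of a called change turned. Over all genes the calls between the doses, 114, ran from 1 in the lower spike set to 1953 with array weights, those at 0.1 µM, 1674, from 324 to 2466, and those at 1.0 µM, 3240, from 2343 to 4696. The replicate block changed no other member's call, and 0 of 9 arrays correlated best with an array of their own number.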
